A study of Solanum lycopersicum with 2 samples.

Results

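The genes described here encode enzymes that make the isoprenoid precursors of the tomato leaf, in the plastid by the methylerythritol phosphate (MEP) route and in the cytosol by the mevalonate route. They were taken by identifier, as the 10 rows, out of 34725 gene models, whose Solyc number is that of DXS1, DXS2, DXR, HDR, GPS, GGPPS1, GGPPS2, HMGR1, HMGR2 or FPS1. The first 7 were taken as the plastid route and the last 3 as the cytosolic route. All 10 rows were found. The deposited table carries no gene names, so names follow the published tomato assignments. A gene of the same name, or a close variant of it, was found in RefSeq (assembly SLM_r2.1) for 10 of the 10, in each case on the chromosome that the Solyc number gives.

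Mature plants of the tomato (Solanum lycopersicum) cultivar Ailsa Craig were sampled at the young primary leaf for RNA sequencing. One library was made from plants labelled SlCycB2-OE, which overexpress the B-type cyclin gene SlCycB2, and 1 from plants labelled SlCycB2 RNAi, in which RNA interference is directed at the same gene; they are called OE leaf and RNAi leaf below. Both libraries share the cultivar, tissue and stage, and wild-type leaf was not analysed here. The sources used here do not give the promoter of the constructs, the number of independent lines or the number of plants pooled. SlCycB2 was not checked in either library, because the table does not say which row it is, and the labels are taken as given. Replicates were not analysed, 1 library standing for each group, so no error between plants and no test could be had. Every difference below is a difference between these 2 libraries, and it cannot be assigned to overexpression or to silencing alone.

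All isoprenoids are built from isopentenyl diphosphate and its isomer dimethylallyl diphosphate, which plants make in both compartments. The plastid pool feeds monoterpenes, diterpenes, carotenoids and the side chains of chlorophyll and plastoquinone. The cytosolic pool feeds sterols, steroidal glycoalkaloids, triterpenes and most sesquiterpenes. Prenyl diphosphate synthases then join the units into the chains from which each class is built.

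Levels are in RPKM, reads scaled by the authors to the length of each gene model and to the mapped reads of its library, so levels can be set side by side between genes of different length. Differences are given as log2 of (RPKM + 1) in OE leaf over (RPKM + 1) in RNAi leaf. The pseudocount of 1 makes the difference of low genes look smaller. Counts of genes refer to the 19466 gene models with a mean RPKM of at least 1, of which 9 were among the 10 isoprenoid genes. The compared genes as a whole had a median log2 ratio of 0.13, with quartiles of -0.07 and 0.33. A gene at 0.13 was therefore in the middle of the table.

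Of these isoprenoid genes, HMGR1 of the cytosolic route differed most between the libraries. It was the only 1 of the 9 compared genes to be higher in OE leaf by 2-fold or more, and 0 were lower by that much. Across all compared genes, 2.60% were higher and 1.92% lower by that much, or 4.52% in either direction. The other 8 genes lay within 2-fold. The 6 compared plastid genes had a median log2 ratio of 0.12, and the 3 cytosolic genes had a median of 0.36.

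**Figure D1:**
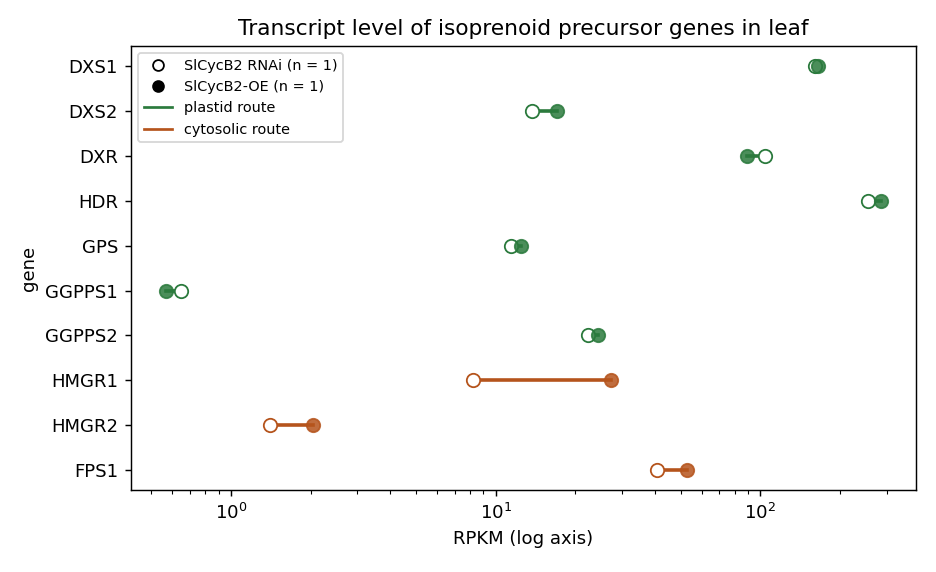
RPKM of each gene (log axis) in SlCycB2 RNAi leaf (open circles) and SlCycB2-OE leaf (filled circles), 1 library each, joined by a line and coloured by route. The line is long for HMGR1, from 8.22 to 27.39 RPKM, and short for the other genes.

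The plastid route opens with 1-deoxy-D-xylulose 5-phosphate synthase, which joins pyruvate and glyceraldehyde 3-phosphate and is regarded as a main control point of the pathway. DXS1 (Solyc01g067890.2.1, chromosome 1 by its identifier) is the isoform known as the housekeeping one of green tissue and fruit. It was at 160.72 RPKM in RNAi leaf and 165.64 RPKM in OE leaf, a log2 ratio of 0.04. DXS1 was higher than 97.9% of all gene models in both libraries, and its level was nearly the same in both.

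DXS2 (Solyc11g010850.1.1, chromosome 11) is the isoform associated in tomato with glandular trichomes, the secretory leaf hairs that make terpenes. It was at 13.71 RPKM in RNAi leaf and 17.02 RPKM in OE leaf, a log2 ratio of 0.29. DXS2 had the highest ratio of the 6 compared plastid genes, and 29.2% of all compared genes had a ratio at least as high. DXS1 exceeded DXS2 11.7-fold in RPKM in RNAi leaf and 9.73-fold in OE leaf, so the housekeeping isoform made up most of the DXS transcript in both leaves.

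Identifiers taken from general knowledge as glandular trichome genes mostly differed in the opposite direction to DXS2. Of 7 such identifiers, 4 reached a mean RPKM of 1. In OE leaf 3 of these were lower and 1 higher by 2-fold or more, against 1.92% and 2.60% of all compared genes. The 3 lower ones were at 0.16 to 0.32 RPKM in OE leaf, so they passed the filter only through their level in RNAi leaf. The summed level of all 7 was 45.5 RPKM in RNAi leaf and 8.23 RPKM in OE leaf. Of the 7, 3 were listed at 0 RPKM in OE leaf, and these were at 0.62, 1.52 and 0.64 RPKM in RNAi leaf. The part of these cells in the value of DXS2 was not tested. In whole leaf, fewer cells of a type and less RNA per cell cannot be told apart.

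DXR (Solyc03g114340.2.1, chromosome 3) makes 2-C-methyl-D-erythritol 4-phosphate, the intermediate that gives the route its name. It was at 103.91 RPKM in RNAi leaf and 89.46 RPKM in OE leaf, a log2 ratio of -0.21. As deposited, DXR alone of the 9 compared genes was lower in OE leaf, by 13.9%, while DXS1, GPS and GGPPS2 joined it below 0 under centring and trimmed-mean scaling. That ratio was -0.35 after centring on the median of all genes, and 85.7% of all compared genes had a higher or equal ratio. DXS1, the step before it, and HDR, the end of the route, were not lower in RPKM as deposited, although DXS1 was at -0.09 after centring.

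HDR (Solyc01g109300.2.1, chromosome 1), 4-hydroxy-3-methylbut-2-enyl diphosphate reductase, carries out the last step and releases isopentenyl and dimethylallyl diphosphate together. It was the most abundant of the 10 transcripts, at 255.94 RPKM in RNAi leaf and 285.31 RPKM in OE leaf, a log2 ratio of 0.16. HDR held 45.0% of the summed RPKM of the plastid genes in RNAi leaf and 48.0% in OE leaf. The ratio of HDR to DXR was 2.46 in RNAi leaf and 3.19 in OE leaf. Together DXS1, DXR and HDR held 91.6% of the plastid sum in RNAi leaf and 90.9% in OE leaf.

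Among the plastid prenyl diphosphate synthases, GPS (Solyc08g023470.2.1, chromosome 8), named as a geranyl diphosphate synthase, was at 11.4 RPKM in RNAi leaf and 12.44 RPKM in OE leaf. Its log2 ratio was 0.12. GGPPS2 (Solyc04g079960.1.1, chromosome 4) makes geranylgeranyl diphosphate, the precursor of carotenoids and of the phytol chain of chlorophyll. It was at 22.26 RPKM in RNAi leaf and 24.28 RPKM in OE leaf, also a log2 ratio of 0.12. Both genes sat at the middle of the table, and the ratio of GGPPS2 to GPS was 1.95 in both libraries.

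GGPPS1 (Solyc11g011240.1.1, chromosome 11), the isoform described in tomato as induced by jasmonate and wounding in leaves, was near the floor. It was at 0.65 RPKM in RNAi leaf and 0.57 RPKM in OE leaf. With a mean of 0.61 RPKM it was the 1 gene left out of the counts. Read totals were not given, so the counting error of such a low value is unknown. GGPPS2 exceeded it 34.2-fold in RNAi leaf and 42.6-fold in OE leaf.

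The signs of the small plastid ratios depended on scaling. DXS1, GPS and GGPPS2 had ratios above 0 as deposited and below 0 after centring on the median of all genes or under trimmed-mean scaling. These rescalings lowered ratios by up to 0.15 on the log2 scale. DXS2 stayed above 0 and DXR below 0 under both, at 0.16 and -0.35 after centring.

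The cytosolic route is controlled at 3-hydroxy-3-methylglutaryl coenzyme A reductase, the enzyme that forms mevalonate and the classic regulated step of sterol synthesis. HMGR1 (Solyc02g082260.2.1, chromosome 2) is the isoform linked in tomato to growing tissue and sterol formation. It was at 8.22 RPKM in RNAi leaf and 27.39 RPKM in OE leaf, a ratio of 3.33 in RPKM and a log2 ratio of 1.62 with the pseudocount. By level HMGR1 ranked 8 among the 10 genes in RNAi leaf and 5 in OE leaf, where it passed GGPPS2, DXS2 and GPS. Of all 19466 compared genes, 148 had a log2 ratio at least as high as HMGR1, or 0.76%. Of the 5698 genes with a mean of 10 to 30 RPKM, the band that holds HMGR1, 80 were at least 2-fold higher, or 1.40%.

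**Figure D2:**
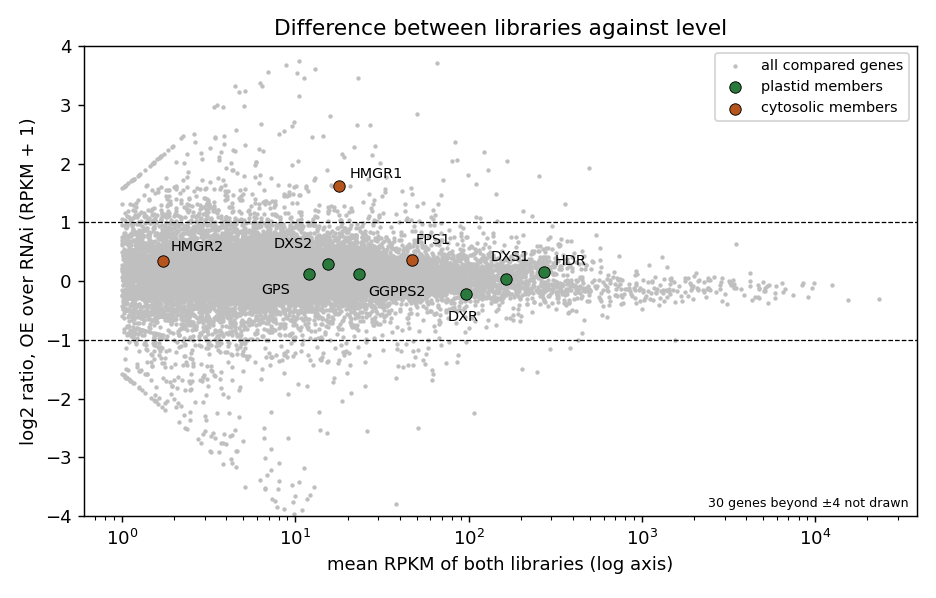
Log2 ratio of the overexpression over RNAi leaf against the mean RPKM of both (log axis), for all 19466 compared genes in grey and the 9 compared isoprenoid genes in colour. Dashed lines mark 2-fold and 30 genes lie beyond the axis. HMGR1, at 1.62, lies above the upper line, and the other 8 genes lie between the lines.

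The difference of HMGR1 was not shared by the genes around it. The 20 nearest compared identifiers on chromosome 2, 10 on each side, had a median log2 ratio of 0.07 and a highest ratio of 0.65. Of these, 0 were at least 2-fold higher and 1 was at least 2-fold lower, against 2.60% and 1.92% of all compared genes. Such counts among 20 genes are near those shares, and the neighbours of every other member also gave 0 or 1 each way. The neighbourhood was looked at after the value of HMGR1 was known. The ratio of HMGR1 stayed between 1.29 and 1.72 under the other pseudocounts and scalings tried.

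HMGR2 (Solyc02g038740.2.1, also on chromosome 2) is the isoform known in tomato for its induction by wounding and pathogens. It was at 1.41 RPKM in RNAi leaf and 2.04 RPKM in OE leaf, a log2 ratio of 0.34. The counting error of so low a value is unknown, and the ratio ran from 0.14 with a pseudocount of 5 to 0.50 with a pseudocount of 0.1. HMGR1 exceeded HMGR2 5.83-fold in RNAi leaf and 13.4-fold in OE leaf. RefSeq also names HMG3 and HMGR4 on chromosome 3. The cytosolic list described below has 2 identifiers on that chromosome, which were not matched to these names. Solyc03g032010.2.1 was at 21.34 RPKM in RNAi leaf and 21.07 RPKM in OE leaf. Solyc03g032020.2.1 was at 16.66 RPKM and 16.36 RPKM. The ratio of HMGR1 is that of 1 gene, and a ratio for HMGR transcript as a whole was not computed. The sources used here do not say how reads that fit several copies were counted, so the split of reads among HMGR copies is uncertain.

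FPS1 (Solyc12g015860.1.1, chromosome 12) is a farnesyl diphosphate synthase, which supplies the chain for sterols and sesquiterpenes. It was the most abundant cytosolic transcript of the 3, at 40.89 RPKM in RNAi leaf and 52.75 RPKM in OE leaf, a log2 ratio of 0.36. Of all compared genes, 22.4% had a ratio at least as high. FPS1 exceeded HMGR1 4.97-fold in RNAi leaf and 1.93-fold in OE leaf. RefSeq names further genes of this kind, FPPS2 and FPPS4, both on chromosome 10, so the same limit on shared reads holds.

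Set against each other, the plastid and cytosolic genes differed in how far apart the libraries were. The summed RPKM of the 7 plastid genes was 568.6 in RNAi leaf and 594.7 in OE leaf, a ratio of 1.05. The summed RPKM of the 3 cytosolic genes was 50.5 in RNAi leaf and 82.2 in OE leaf, a ratio of 1.63. The sum of these 7 plastid genes exceeded that of these 3 cytosolic genes 11.3-fold in RNAi leaf and 7.24-fold in OE leaf. The sets are of unequal size and leave out other genes of both routes, so these ratios do not describe the routes as a whole. HMGR1 alone held 16.3% of the cytosolic sum in RNAi leaf and 33.3% in OE leaf. Without HMGR1 the cytosolic sum was 42.3 RPKM in RNAi leaf and 54.8 RPKM in OE leaf. The other plastid identifiers described below summed to 487.3 RPKM in RNAi leaf and 504.2 RPKM in OE leaf. The other cytosolic identifiers summed to 126.3 RPKM and 176.4 RPKM.

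By gene, the log2 ratios of the compared plastid members ran from -0.21 to 0.29 and those of the cytosolic members from 0.34 to 1.62. The members of the routes did not overlap with the pseudocount of 1. With a pseudocount of 5 they did, since HMGR2, at 0.14, was then below DXS2, at 0.24, and HDR, at 0.15. The other identifiers described below overlapped with the pseudocount of 1, the plastid ones from -0.20 to 0.48 and the cytosolic ones from -0.02 to 1.04. The median of the plastid members minus that of the cytosolic members was -0.24. It was -0.23 without HMGR1, an alternative added after the values were seen. A median of 3 does not depend on how high the highest value is, so this does not show how far the contrast rests on HMGR1. The value without HMGR1 rests on FPS1 and the low HMGR2. Genes above the upper quartile of the whole table, a log2 ratio of 0.33, numbered 0 of 6 in the plastid route and 3 of 3 in the cytosolic route. HMGR2, at 0.335 against a quartile of 0.334, was barely above it. The routes also differed in level, with mean RPKM of up to 270.6 for plastid genes (HDR) and 46.8 for cytosolic genes (FPS1). Among the 500 genes closest in level, 0.8% had a ratio at least as high as HMGR1, 11.8% as FPS1 and 33.4% as HMGR2. For the compared plastid genes that share ran from 28.8% (DXS2) to 88.0% (DXR). Genes of a route are not replicates, so the contrast describes these libraries and was not tested.

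Further genes of both routes were examined through 21 identifiers taken from general knowledge of tomato genetics, of which 20 reached a mean RPKM of 1. Some may be further copies for steps described above. Their functions were not checked against an annotation, so they are described as lists. Of the 20, 1 was at least 2-fold higher and 0 were at least 2-fold lower, against 2.60% and 1.92% of all compared genes. The 7 compared plastid identifiers ran from -0.20 to 0.48 in log2 ratio with a median of 0.05, and 1 of them was above the upper quartile of the whole table. The 10 cytosolic identifiers ran from -0.02 to 1.04 with a median of 0.39, and 5 of them were above that quartile. The 3 identifiers taken as isopentenyl diphosphate isomerases, which serve both routes, ran from -0.14 to 0.53 with a median of 0.10.

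The identifier with the largest difference was Solyc08g080170.2.1 of the cytosolic list, at 18.29 RPKM in RNAi leaf and 38.77 RPKM in OE leaf, a log2 ratio of 1.04. It lay just above the 2-fold limit and dropped below it with a pseudocount of 5, after centring and under trimmed-mean scaling. Next was Solyc01g098840.2.1 of the same list, at 9.18 RPKM and 15.25 RPKM, a log2 ratio of 0.67. On the lower side, Solyc02g085700.1.1 of the plastid list was at 70.16 RPKM in RNAi leaf and 60.88 RPKM in OE leaf, a log2 ratio of -0.20. Solyc08g075390.2.1, of the isomerase list, followed at 17.16 RPKM and 15.52 RPKM, a log2 ratio of -0.14.

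**Figure D3:**
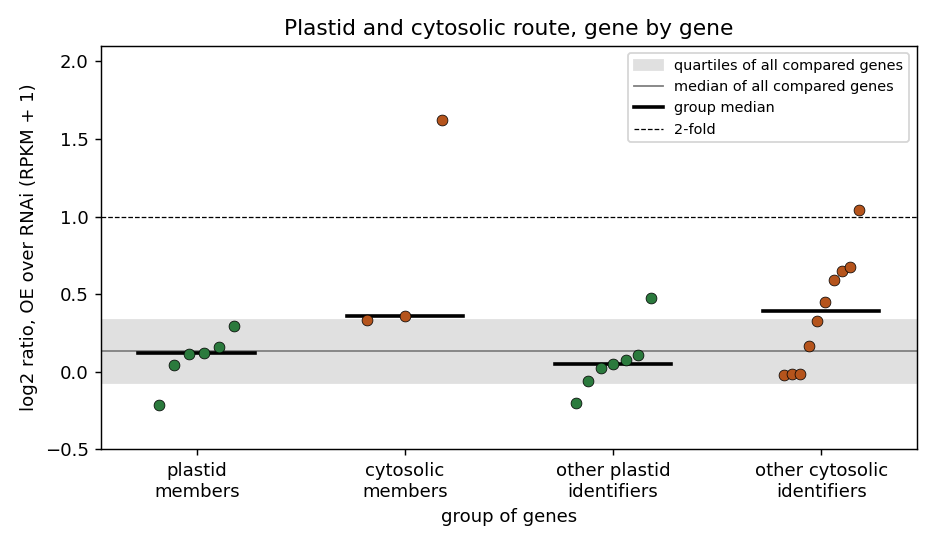
Log2 ratio of the overexpression over RNAi leaf for each compared gene of the plastid and cytosolic routes, members on the left and the other identifiers on the right, with group medians as black bars. The grey band spans the quartiles of all compared genes, -0.07 to 0.33. The 3 cytosolic members and 5 of the 10 other cytosolic identifiers lie above the band, against 1 of the 13 plastid genes.

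Members and other identifiers combined gave 13 compared genes on each side. The plastid median was 0.08 and the cytosolic median 0.36, and 1 of 13 plastid genes stood above the upper quartile of the whole table against 8 of 13 cytosolic genes. After centring, the medians were -0.06 and 0.22, so the plastid genes lay slightly below the middle of the table and the cytosolic genes above it. The higher level was not common to all of the cytosolic list, since 3 of its 10 identifiers had ratios just below 0. The combined counts include the members already described. Members and lists were chosen with earlier results of these data known, and the combined contrast was not tested.

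**Figure D4:**
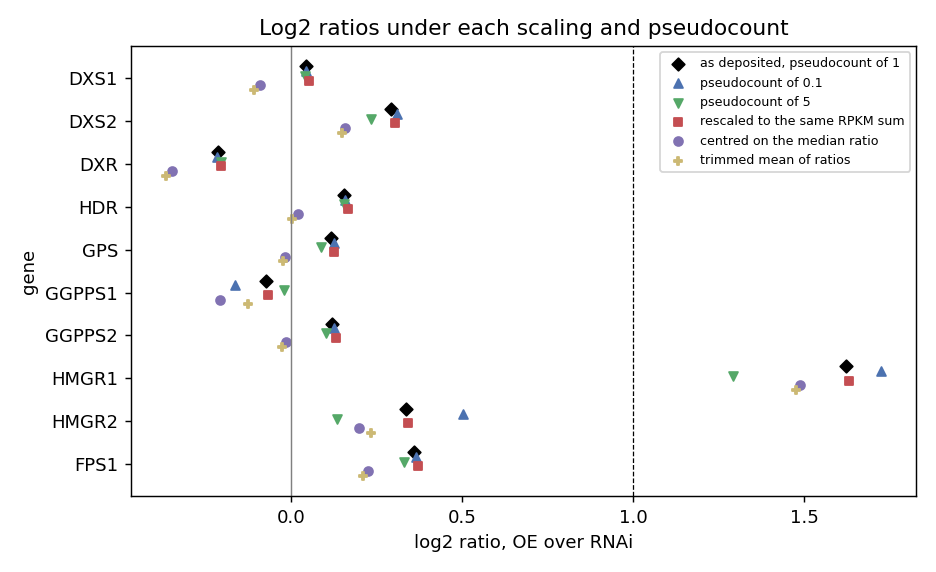
Log2 ratio of each gene under the deposited scaling with a pseudocount of 1 and 5 other settings, 1 marker per setting. HMGR1 stays right of the dashed 2-fold line in every setting shown, and DXS1, GPS and GGPPS2 cross 0 under centring and the trimmed mean of ratios.

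RPKM are relative values, and a set of abundant photosynthesis genes was lower in OE leaf. Of 6 identifiers taken from general knowledge as Rubisco small subunit, Rubisco activase and chlorophyll-binding protein genes, 6 were lower, by log2 ratios of -0.38 to -0.07. They summed to 71818 RPKM in RNAi leaf and 59666 RPKM in OE leaf, out of 945985 and 939089 RPKM over all gene models. High levels of these photosynthesis genes match the labelled tissue. The part of this shift in the small ratios of the isoprenoid genes was not tested. Centring on the median, which left HMGR1 at 1.49 and FPS1 at 0.22, sets the middle of the table to 0.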

How the data were processed

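RNA of 2 leaf libraries, 1 per group, was sequenced. Per the labels' protocols, RNA was extracted with TRIzol and libraries were made by standard Illumina methods. Per the submitters' processing notes, TopHat was used, an aligner for spliced reads, with no version or role stated. The sources used here do not give the genome build, annotation, counting program, strand setting or treatment of multiply mapped reads. The deposited values are RPKM calculated by the authors, per the file headers, rounded to 2 decimals. RPKM are scaled to the reads of each library, so a change in abundant transcripts can shift the values of others.

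Read totals were not given, so the absolute depth is unknown. Over 2589 low genes, the RPKM worth of 1 read, OE over RNAi, fitted whole-number fractions best at 1.02, within a scan from 0.5 to 2 (28.0% of genes within 0.01 in natural log, against a median of 3.75%).

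Genes averaging 1 RPKM or more were compared as log2((RPKM + 1) / (RPKM + 1)) and counted at 2-fold. No p-value was computed. The calculation was tested on simulated data with an assumed depth and no variation between plants. That test does not show how reliable the 2-fold counts of these libraries are. The alternatives were pseudocounts of 0.1 and 5, an equal RPKM sum, centring on the median ratio, trimmed-mean scaling (each end trimmed by 30% for ratios and 5% for levels), no filter, a filter at a mean of 5 RPKM, a 4-fold limit and other make-ups of the routes. All 10 members are named, and of the other pathway identifiers the 2 largest differences in each direction and 2 of the cytosolic list on chromosome 3. Members, lists and settings were chosen with earlier results of these data known. Of the 34725 identifiers, 0 matched an identifier in the RefSeq table of 41476 genes (SLM_r2.1), and members were matched by symbol. Protein and promoter sequences were not used here. Python 3.11.15, numpy 2.4.6, pandas 2.3.3 and matplotlib 3.10.9 were used.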

Additional observations from a re-analysis of the deposited data

How the results depend on the processing

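HMGR1 remained the 1 member at least 2-fold higher, and 0 members were at least 2-fold lower, under every alternative except the 4-fold limit, where 0 were higher. Of 50 values for the 10 members under other pseudocounts and scalings, 50 moved by less than 1 SD of the log2 ratios of the 500 genes closest in level. That scale is taken across genes and does not measure replicate spread. The scalings shifted ratios by at most 0.15, below the smallest SD, 0.32 for DXS1. Rescaled values therefore could not pass that limit, and their count is no sign of stability. Of the 10 members, 3 changed sign. The median of the plastid members minus that of the cytosolic members kept its sign throughout. It was -0.87 with the filter at 5 RPKM, where HMGR2 dropped out and the cytosolic median was 0.99, and -0.88 for the 4 MEP enzymes against HMGR1 and HMGR2. Of the other pathway identifiers, 0 were at least 2-fold higher with a pseudocount of 5, after centring, with the trimmed mean of ratios and at the 4-fold limit. Over all compared genes, the counts higher and lower were 901 and 573 with a pseudocount of 0.1, 141 and 128 with a pseudocount of 5, 222 and 155 with the filter at 5 RPKM, and 96 and 99 at the 4-fold limit, against 506 and 373. The share higher among genes past 2-fold was 57.6% as deposited, 43.4% after centring and 46.0% with the trimmed mean of ratios. No replicate could be left out, and counting error is unknown without read totals. No paired analysis was possible because each group has a single library.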
